A study of Mus musculus with 12 samples.

Results

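Mast cell genes were followed across normal mouse skin, imiquimod (IMQ)-induced psoriasis-like lesions and lesions treated with Banzhilian formula (BZLF). The 10 genes were listed by symbol as mast cell proteases and receptors, namely Mcpt4, Cma1, Cpa3, Tpsb2, Hdc, Fcer1a, Ms4a2, Mrgprb1, Mrgprb2 and Mrgprb3. All 10 had a value among the 18505 genes of the deposited FPKM table, and all 10 passed the filter of 0.1 FPKM on average, which left 15288 genes for testing. FPKM counts the fragments of a gene relative to its transcript length and to the depth of the library. In lesions given NaCl solution the transcripts of the chymases Mcpt4 and Cma1, of Cpa3 and of the Mrgprb receptors were lower than in control skin, while those of the IgE-binding chain Fcer1a and of Hdc were higher. The tryptase Tpsb2 and the receptor chain Ms4a2 did not pass the test. In lesions treated with BZLF no protease differed from that level by the test, and for Fcer1a and Hdc values below those of the NaCl-treated lesions did not pass over all genes.

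Mast cells of the skin lie in the dermis around vessels and nerves and store proteases, histamine and heparin in granules. They release them when antigen crosslinks IgE held on the high-affinity IgE receptor, or when basic peptides and drugs act on receptors of the Mrgpr family. The granule proteases Mcpt4, Cma1, Cpa3 and Tpsb2 mark mast cells of the connective tissue type, whereas Hdc and the chains of the IgE receptor are also used by basophils and other myeloid cells.

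RNA-seq was performed on back skin of wild-type BALB/c mice on day 10, with 4 samples in each of 3 groups. The methods of the study give male mice of 5 to 6 weeks whose backs were shaved. The control group had no IMQ and is labelled as white space handling, which the methods describe as petroleum jelly. Samples labelled IMQ + NS, here called NS-treated, received IMQ cream, an agonist of Toll-like receptors, and then NaCl solution. Samples labelled IMQ + BZLF, here called BZLF-treated, received the cream and then external BZLF, a prescription of traditional Chinese medicinal materials. Which of the BZLF doses of the study these samples received is not stated in the sources used here. In the methods both IMQ groups were covered with gauze and a polyurethane film, and no such cover is given for the control group. In comparisons with control, IMQ therefore cannot be told apart from the cover and from the NaCl solution or BZLF under it. No source used here says whether each of the 4 samples of a group was 1 animal, so the p-values measure the spread between these samples.

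Summed over all genes, a sample had between 444660 and 506622 FPKM. The study states a similar amount of clean sequence for every sample, and read counts per gene were not used here. Control replicate 2 stood apart from the other control samples. Its FPKM, summed over 7 genes of the hair shaft and inner root sheath, was 1860, against 18.8 to 54.8 in the other 3, and its sum over 5 skeletal muscle genes was 3212, against 7392 to 8017. It was also the lowest control sample for 9 of the 10 mast cell genes, all except Fcer1a, so the comparisons with the control group are given below with and without it. In the BZLF-treated group, replicate 1 was lowest for 8 of the 10 genes.

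The label of the gene set was checked against the levels in the control group. Mcpt4, Cma1, Cpa3 and Tpsb2 lay at or above the 89.4 percentile of all tested genes. The remaining members lay lower, from the 8.0 percentile for Fcer1a to the 50.1 percentile for Mrgprb3. The mast cell receptor Kit, which melanocytes also carry, averaged 3.44 ± 1.25 FPKM (SD, n = 4). Of 30 further mast cell genes in a list, 29 had a value and 25 passed the filter. Mcpt1, Mcpt2 and Mcpt9, proteases of the mucosal or uterine type, and Rgs13 did not pass it, and Tpsab1 was not analysed here. Among basophil genes the protease gene Mcpt8 averaged 0.0763 ± 0.0925 FPKM in control skin and Prss34 was at 0 in 3 of the 4 control samples.

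The promoters of 5 of the genes are shown because Mcpt4, Cma1 and Cpa3 passed the test in the same direction, whereas Fcer1a and Ms4a2 encode chains of 1 receptor, of which Fcer1a rose and Ms4a2 did not pass. Each window runs from 250 bases before to 50 bases after a transcription start in RefSeq on GRCm38.p6, 5′ to 3′ on the minus strand, at chr14:56062261-56062560 for Mcpt4, chr14:55944626-55944925 for Cma1, chr3:20242132-20242431 for Cpa3, chr1:173227180-173227479 for Fcer1a and chr19:11623670-11623969 for Ms4a2. Capitals mark letters bound by GATA factors, searched for on both strands as AGATAA with its variant AGATAG and as TGATAA with its variant TGATAG, and an E-box bound by MITF, searched for as CACGTG and as its variant CATGTG. Read from the opposite strand AGATAA is TTATCT, and AGATAG is CTATCT, while CATGTG is CACATG.
Mcpt4: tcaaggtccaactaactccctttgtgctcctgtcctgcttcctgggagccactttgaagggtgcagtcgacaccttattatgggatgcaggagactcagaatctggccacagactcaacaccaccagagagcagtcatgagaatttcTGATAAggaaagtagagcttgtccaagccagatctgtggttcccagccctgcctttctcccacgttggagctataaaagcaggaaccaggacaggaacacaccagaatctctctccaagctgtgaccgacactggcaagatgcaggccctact
Cma1: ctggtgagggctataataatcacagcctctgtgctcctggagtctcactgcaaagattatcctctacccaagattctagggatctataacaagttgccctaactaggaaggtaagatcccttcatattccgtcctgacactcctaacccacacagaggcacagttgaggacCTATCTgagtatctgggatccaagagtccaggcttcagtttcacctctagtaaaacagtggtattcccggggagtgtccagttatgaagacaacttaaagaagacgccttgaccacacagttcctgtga
Cpa3: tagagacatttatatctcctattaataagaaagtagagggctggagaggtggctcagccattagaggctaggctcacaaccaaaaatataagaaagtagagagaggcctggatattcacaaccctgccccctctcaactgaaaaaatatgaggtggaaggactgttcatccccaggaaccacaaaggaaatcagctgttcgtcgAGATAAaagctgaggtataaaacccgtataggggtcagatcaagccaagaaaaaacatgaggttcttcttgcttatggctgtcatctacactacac
Fcer1a: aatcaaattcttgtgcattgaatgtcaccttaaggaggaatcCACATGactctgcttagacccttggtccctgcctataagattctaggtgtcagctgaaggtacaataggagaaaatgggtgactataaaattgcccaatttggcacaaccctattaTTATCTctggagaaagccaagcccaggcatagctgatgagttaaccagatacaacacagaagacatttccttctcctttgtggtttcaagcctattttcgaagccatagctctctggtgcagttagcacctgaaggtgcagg
Ms4a2: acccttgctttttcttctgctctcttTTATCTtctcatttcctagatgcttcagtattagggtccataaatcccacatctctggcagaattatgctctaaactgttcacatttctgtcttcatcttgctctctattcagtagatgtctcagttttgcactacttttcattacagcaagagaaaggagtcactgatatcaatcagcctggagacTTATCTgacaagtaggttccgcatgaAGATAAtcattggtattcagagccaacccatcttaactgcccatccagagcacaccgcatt

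RefSeq windows were matched for 8 of the 10 genes, all except Tpsb2 and Mrgprb3. All 8 held at least 1 match to the GATA letters, which 29.8% of the 32851 windows of that length in the annotation held. The match began at -46 from the start in Cpa3, -103 in Mcpt4, -79 in Cma1 and -92 in Fcer1a. Ms4a2 held 3 matches, at -224, -37 and -11, and windows with 2 or more made up 7.77% of all windows. The E-box letters were found in the Fcer1a window, at -208, and in none of the other 7, against 20.4% of all windows. A match describes the letters of a window and does not show binding.

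In control skin the proteases had the highest levels of the 10 genes. Mcpt4, a chymase whose gene lies at chr14:56059744-56062310, had 136, 79.0, 111 and 111 FPKM in control replicates 1 to 4, 52.6, 70.4, 46.8 and 49.3 in the NS-treated group and 34.0, 50.6, 67.4 and 60.2 in the BZLF-treated group. Every control sample was above every IMQ-treated sample, while the NS-treated and BZLF-treated samples overlapped. Mcpt4 fell from 109 ± 23.3 to 54.8 ± 10.7 FPKM (SD, n = 4) in the NS-treated group, a log2 fold change of -0.98 on the log2(FPKM + 0.1) scale (standard error, SE, 0.18, adjusted p = 0.00188 from limma). In bulk skin a lower level can come from fewer mast cells, less RNA in each or a changing share of dermis and epidermis. These cannot be told apart.

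**Figure D1:**
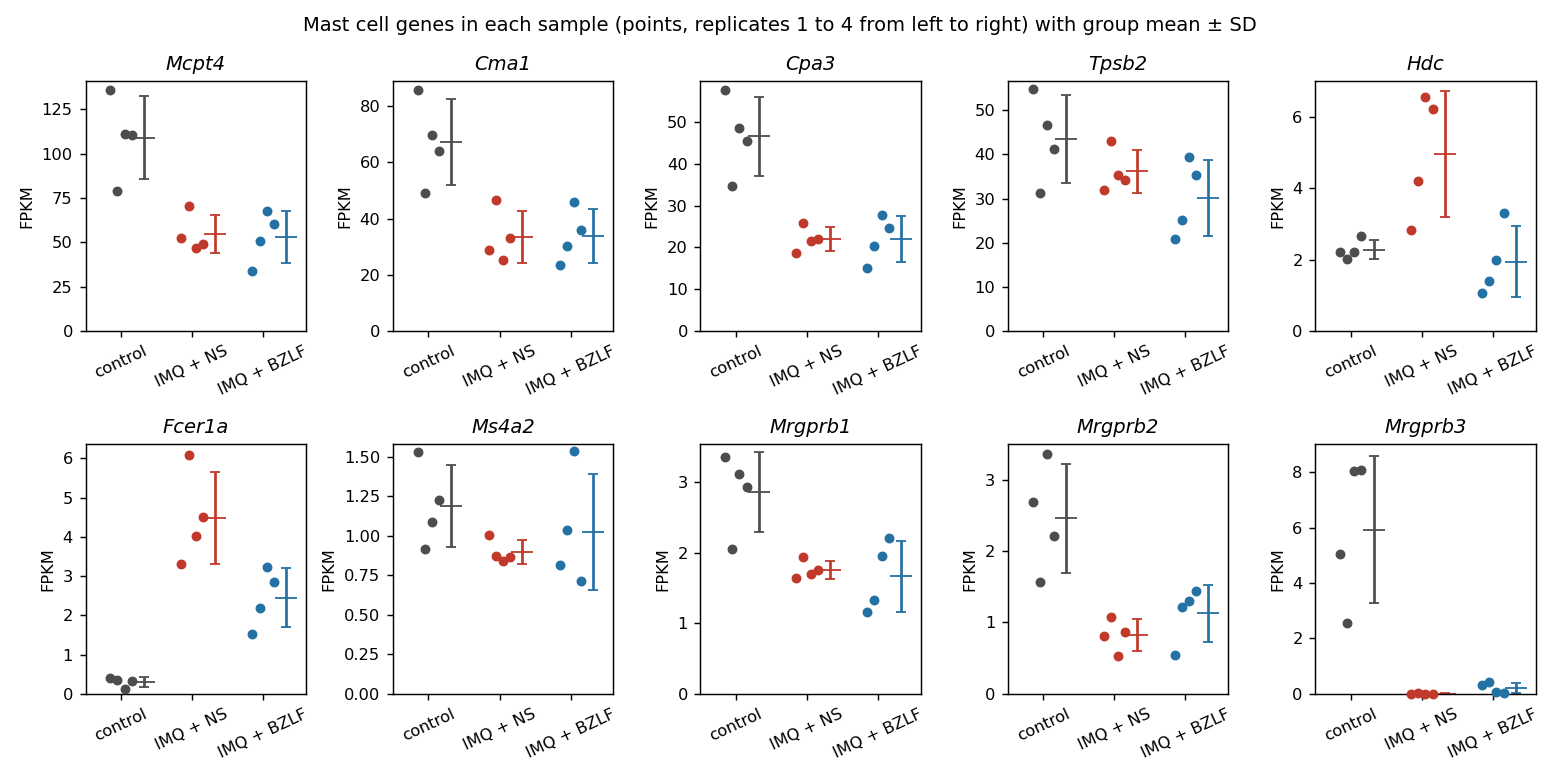
FPKM (vertical axes, each from 0) of the 10 mast cell genes in each of the 12 samples, by group. Points are samples and the bar beside them is the mean ± SD (n = 4). The control samples of Mcpt4, Cma1 and Cpa3 lie above all IMQ-treated samples, those of Fcer1a lie below all of them, and Mrgprb3 is close to 0 in the IMQ-treated groups.

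Cma1, a second chymase of the same cluster at chr14:55941451-55944675, had 85.8, 49.0, 69.9 and 64.1 FPKM in control, 29.0, 46.4, 25.3 and 33.1 in NS-treated and 23.4, 30.3, 46.0 and 35.9 in BZLF-treated samples. The lowest control sample was just above the highest sample of each treated group. The mean fell from 67.2 ± 15.2 to 33.5 ± 9.21 FPKM (SD, n = 4), a log2 fold change of -1.01 in NS-treated against control (SE 0.22, adjusted p = 0.00403 from limma). Cpa3, the mast cell carboxypeptidase (chr3:20215616-20242209), had 57.7, 34.6, 48.5 and 45.5 FPKM in control, 18.7, 25.9, 21.5 and 22 in NS-treated and 15.1, 20.2, 27.7 and 24.7 in BZLF-treated samples. Its groups were separated in the same manner, with control above both treated groups. Its log2 fold change in NS-treated against control was -1.06 (SE 0.16, adjusted p = 6.6e-04 from limma).

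Tpsb2, a tryptase stored in the same granules (chr17:25366308-25368096), did not pass the test in lesions. It had 54.9, 31.2, 46.6 and 41.3 FPKM in control, 31.9, 43.1, 35.4 and 34.2 in NS-treated and 20.9, 25.1, 39.3 and 35.3 in BZLF-treated samples. The 3 groups overlapped. The log2 fold change in NS-treated against control was -0.24 with a 95% interval of -0.63 to 0.14 (adjusted p = 0.247 from limma). Without control replicate 2 it was -0.39 and passed the threshold (adjusted p = 0.0230).

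The difference between the proteases was examined by the ratio of their FPKM within a sample, which does not depend on how the samples are scaled. All 6 pairs of the 4 proteases were compared between the 3 pairs of groups by a two-sided exact permutation test, which with 4 samples against 4 cannot go below p = 0.0286. These ratios were chosen after the values had been seen, and after adjustment over the 18 tests no ratio passed, the smallest adjusted p being 0.0735. Since a single test stops at 0.0286, a ratio could pass only if more than the 7 tests without overlap had reached it. The ratio of Tpsb2 to Cpa3 was 0.952, 0.903, 0.960 and 0.908 in control samples, 1.71, 1.66, 1.65 and 1.56 in NS-treated samples and 1.39, 1.24, 1.42 and 1.43 in BZLF-treated samples. No 2 of the 3 groups overlapped in this ratio, with NS-treated highest, control lowest and BZLF-treated between them (exact permutation p = 0.0286 for each pair). The ratio of Mcpt4 to Tpsb2 and that of Cma1 to Tpsb2 separated control from both treated groups. Between NS-treated and BZLF-treated samples both of these ratios overlapped (exact permutation p = 0.0857 and 0.0571). In contrast, the ratio of Mcpt4 to Cpa3 was 2.34 ± 0.0695 in control, 2.49 ± 0.322 in NS-treated and 2.41 ± 0.107 in BZLF-treated samples (SD, n = 4), with overlap throughout. That of Cma1 to Cpa3 was 1.44 ± 0.0355, 1.51 ± 0.252 and 1.54 ± 0.0894.

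**Figure D2:**
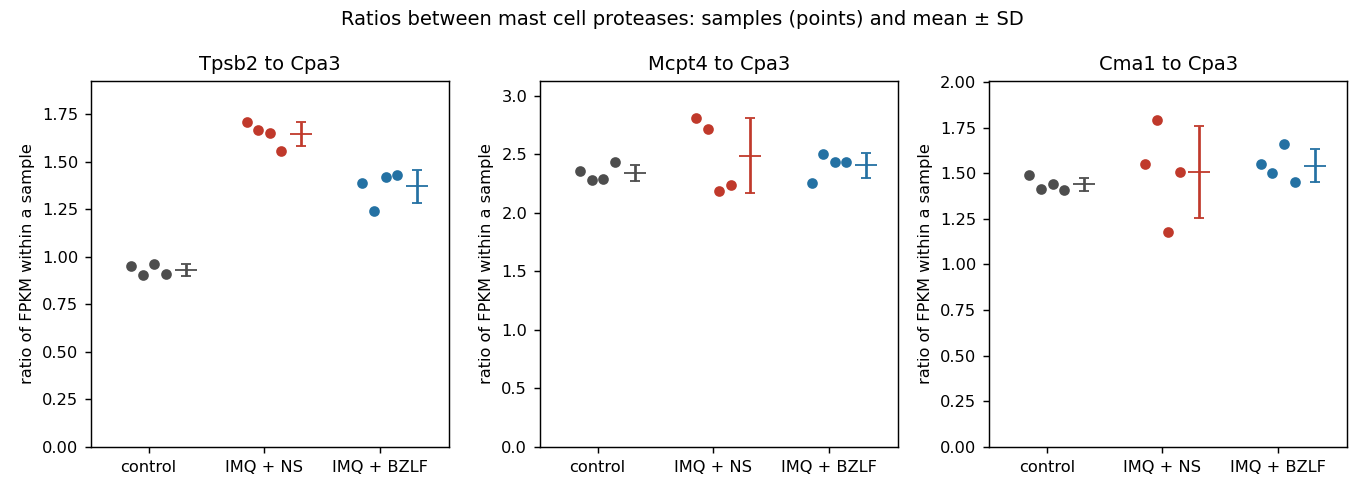
Ratios of FPKM between mast cell proteases within a sample (vertical axes from 0, no unit) for Tpsb2 to Cpa3, Mcpt4 to Cpa3 and Cma1 to Cpa3, by group. Points are samples and the bars are mean ± SD (n = 4). The ratio of Tpsb2 to Cpa3 separates the 3 groups, with means of 0.931, 1.64 and 1.37, and the other ratios drawn overlap.

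The control group of Tpsb2 to Cpa3 varied far less than the genes themselves. The SD of the ratio was 0.0297 around a mean of 0.931, while Cpa3 and Tpsb2 had coefficients of variation of 20.4% and 22.8% over the same 4 samples. Control replicate 2, lowest for both genes, had a ratio of 0.903, next to 0.908 in replicate 4. Without any 1 sample the log2 difference of this ratio between NS-treated and control samples was 0.80 to 0.85.

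Hdc, histidine decarboxylase, makes histamine and is used by mast cells, basophils and stimulated myeloid cells. It had 2.23, 2.02, 2.22 and 2.68 FPKM in control, 2.83, 4.2, 6.58 and 6.23 in NS-treated and 1.07, 1.40, 2.0 and 3.31 in BZLF-treated samples. All NS-treated samples were above all controls, and BZLF-treated replicate 4 reached above the lowest NS-treated sample. Hdc rose in NS-treated against control by 1.02 on the log2 scale (SE 0.25, adjusted p = 0.00897 from limma). In BZLF-treated against NS-treated samples the log2 fold change was -1.35 with a 95% interval of -2.16 to -0.54, which did not pass (adjusted p = 0.0584), and against control samples it was -0.34 (adjusted p = 0.369). Without NS-treated replicate 1 the change after BZLF was -1.59 and passed (adjusted p = 0.0375), as it did without BZLF-treated replicate 4, at -1.64 (adjusted p = 0.0263).

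Neutrophil and lesional keratinocyte genes moved with Hdc. All 8 of a list of neutrophil genes passed as higher in NS-treated than in control samples and all 8 as lower in BZLF-treated than in NS-treated samples. Of all genes, 29% passed as higher in the former comparison and 5.17% as lower in the latter. The summed FPKM of the 8 was 42.5 to 66.0 in control, 3151 to 9924 in NS-treated and 69.8 to 92.8 in BZLF-treated samples. Most of it in NS-treated samples came from S100a8 and S100a9, which lesional keratinocytes also make. Without this pair the sum was 15.3 to 24.3 in control, 45.6, 53.5, 93.5 and 72.5 in NS-treated replicates 1 to 4 and 9.95 to 15.3 in BZLF-treated samples. Of 5 genes of lesional keratinocytes and proliferation all 5 passed as higher in NS-treated than in control samples, and 3 passed as lower after BZLF. Their sum was 20.3 to 88.3 in control, 948, 1384, 2341 and 1528 in NS-treated replicates 1 to 4 and 155 to 259 in BZLF-treated samples. Among the 4 NS-treated samples the keratinocyte sum and the neutrophil sum without S100a8 and S100a9 had the order of Hdc, while among the BZLF-treated samples neither did. The full neutrophil sum had the order of Hdc among the BZLF-treated samples and not among the NS-treated samples. In control samples the highest Hdc, in replicate 4, went with the lowest neutrophil sum. The part of these cells in the Hdc values was not tested.

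Of the chains that are particular to the IgE receptor Fcer1a passed and Ms4a2 did not, and the difference between them was not tested. Fcer1a, the alpha chain that binds IgE (chr1:173221269-173227232), had 0.414, 0.341, 0.124 and 0.326 FPKM in control, 3.31, 6.08, 4.02 and 4.51 in NS-treated and 1.53, 2.18, 3.23 and 2.85 in BZLF-treated samples. The 3 groups did not overlap, the NS-treated samples being highest and the controls lowest. Fcer1a rose by 3.54 on the log2 scale in NS-treated against control (SE 0.29, adjusted p = 2.6e-05 from limma), from 0.301 ± 0.124 to 4.48 ± 1.17 FPKM (SD, n = 4), a ratio of the means of 14.9. It was also higher in BZLF-treated than in control samples, by 2.68 (SE 0.31, adjusted p = 2.8e-04). Between BZLF-treated and NS-treated samples the log2 fold change was -0.86 with a 95% interval of -1.42 to -0.31, which did not pass over all genes (adjusted p = 0.0720 from limma).

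Ms4a2, the beta chain that amplifies the signal (chr19:11615517-11623790), had 1.53, 0.914, 1.09 and 1.22 FPKM in control, 1.01, 0.872, 0.838 and 0.867 in NS-treated and 0.813, 1.03, 1.54 and 0.710 in BZLF-treated samples. The groups overlapped, and the highest sample of all was BZLF-treated replicate 3. Its log2 fold change was -0.35 in NS-treated against control (95% interval -0.74 to 0.03, adjusted p = 0.103 from limma) and 0.12 in BZLF-treated against NS-treated (95% interval -0.35 to 0.60, adjusted p = 0.772). Without control replicate 2 the former was -0.46 and passed (adjusted p = 0.0208). Fcer1g, the gamma chain shared with other Fc receptors of myeloid cells, averaged 71.9 ± 9.45 FPKM in control, 79.4 ± 9.35 in NS-treated and 31.8 ± 7.54 in BZLF-treated samples (SD, n = 4). It did not pass in NS-treated against control (0.15, adjusted p = 0.321) and fell in BZLF-treated against NS-treated samples by 1.34 (adjusted p = 0.00469 from limma).

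Basophils also carry Fcer1a and Ms4a2. Of 5 basophil genes, 4 were tested, and in NS-treated against control samples 1 passed, Il3ra, at -0.48 (adjusted p = 0.0147 from limma). Mcpt8 averaged 0.336 ± 0.259 FPKM in NS-treated and 0.359 ± 0.228 in BZLF-treated samples (SD, n = 4), with log2 fold changes against control of 1.23 (adjusted p = 0.0503) and 1.31 (adjusted p = 0.0499). Prss34 averaged 0.0198 FPKM in NS-treated and 0.0441 in BZLF-treated samples. The summed FPKM of the list was 9.88 to 11.8 in control, 6.73 to 8.96 in NS-treated and 5.72 to 8.09 in BZLF-treated samples, most of it from Il3ra, and without Il3ra 0.623 to 1.04, 0.724 to 1.17 and 0.555 to 1.17. The summed level of 7 dendritic and Langerhans cell genes was 41.0 to 71.6 in control, 13 to 18.7 in NS-treated and 10.2 to 19.6 in BZLF-treated samples. Most of the control sum came from Cd209a, at 40.2 ± 11.0 FPKM (SD, n = 4). In NS-treated against control samples 5 of the 7 fell and 1, Itgax, rose (0.56, adjusted p = 0.0368 from limma). Of all genes, 27.1% passed there as lower and 29% as higher. The part of basophils and of dendritic and Langerhans cells in the Fcer1a values was not tested.

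The 3 Mrgprb receptors lie close to each other on chromosome 7. Mrgprb2, the mast cell receptor for basic secretagogues such as substance P (chr7:48550965-48558086), had 2.69, 1.57, 3.36 and 2.21 FPKM in control, 0.814, 1.08, 0.527 and 0.864 in NS-treated and 0.546, 1.22, 1.31 and 1.45 in BZLF-treated samples. Every control sample was above every treated sample. Mrgprb2 fell by 1.46 on the log2 scale in NS-treated against control (SE 0.27, adjusted p = 0.00180 from limma) and by 1.08 in BZLF-treated against control (SE 0.32, adjusted p = 0.0199). The latter was not below the threshold without control replicate 1 (-1.02, adjusted p = 0.0544) or control replicate 3 (-0.92, adjusted p = 0.0566).

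Mrgprb1, a neighbouring member of the family (chr7:48444113-48456342), had 3.35, 2.05, 3.12 and 2.94 FPKM in control, 1.64, 1.94, 1.69 and 1.76 in NS-treated and 1.16, 1.32, 1.96 and 2.22 in BZLF-treated samples. The NS-treated samples were close to each other and below the controls, while BZLF-treated replicate 4 was above control replicate 2. The log2 fold change was -0.65 in NS-treated (SE 0.16, adjusted p = 0.00855 from limma) and -0.77 in BZLF-treated samples (SE 0.23, adjusted p = 0.0227), each against control. The latter no longer passed when 1 sample was dropped in 5 of 8 cases, namely without control replicate 1 (-0.69), 3 (-0.72) or 4 (-0.75) and without BZLF-treated replicate 1 (-0.62) or 2 (-0.68).

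Mrgprb3, a further receptor of that cluster (chr7:48642863-48643801), had the largest fitted change among the 10 genes. It had 5.04, 2.56, 8.06 and 8.09 FPKM in control samples, was listed at 0 in NS-treated replicates 1, 3 and 4 and at 0.0278 in replicate 2, and had 0.329, 0.416, 0.0540 and 0.0260 FPKM in BZLF-treated samples. All controls were above all treated samples, and BZLF-treated replicate 4 was below NS-treated replicate 2. The fitted log2 fold change in NS-treated against control was -5.69 (SE 0.35, adjusted p = 5.9e-06 from limma), and in BZLF-treated against control -4.42 (SE 0.54, adjusted p = 3.4e-04). The former depended on the constant and was -8.60 with 0.01 and -2.69 with 1 added before the logarithm. In BZLF-treated against NS-treated samples it was 1.27 (95% interval 0.22 to 2.31, adjusted p = 0.146), or 3.28 and 0.25 with the other constants.

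**Figure D3:**
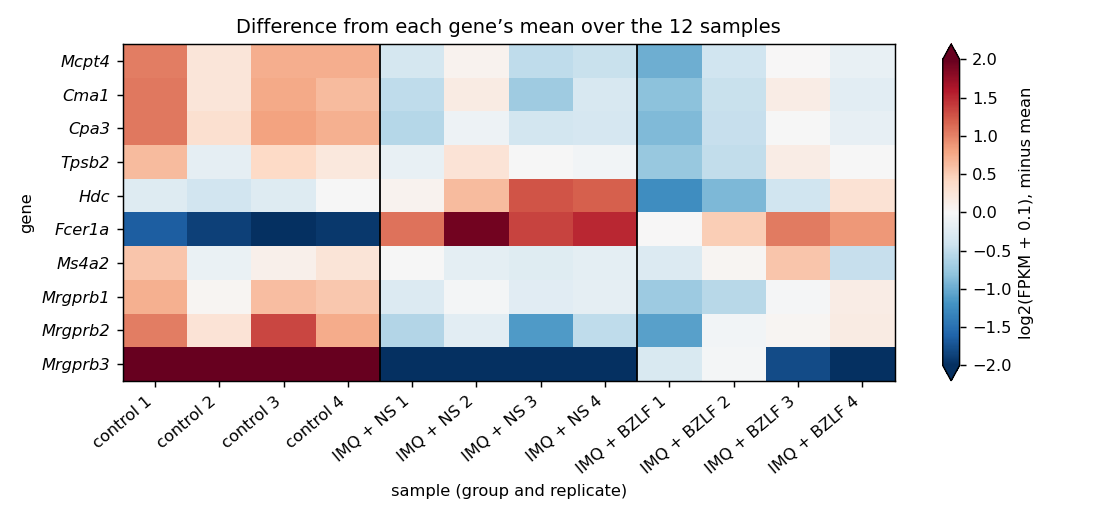
Difference of log2(FPKM + 0.1) from the mean of each gene over the 12 samples, with genes in rows and samples in columns by group and replicate. Red is above and blue below the mean, and colours stop at 2 in either direction, which Mrgprb3 and Fcer1a exceed. Mcpt4, Cma1, Cpa3, Mrgprb1 and Mrgprb2 share a pattern, while Hdc and Fcer1a are highest in the IMQ + NS samples.

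Reads of related genes could have been shared or split by the authors' alignment. Identity is given between the GENCODE transcripts with the best local alignment. The longest shared run is given over all protein-coding transcripts of both genes. Mrgprb3 and Mrgprb2 were identical at 76.6% of 988 aligned bases with a run of 23 bases, and Mrgprb1 and Mrgprb2 at 72.9% of 1984 with a run of 25. Mrgprb1 was closer to Mrgprx2, with 84.8% of 2280 bases and a run of 39. Mcpt4 and Cma1 were identical at 70.9% of 722 bases, and Mcpt4 and Mcpt9 at 84.9% of 812 with a run of 56, but Mcpt9 did not pass the filter. Tpsb2 and Tpsab1, the other granule tryptase, were identical at 76.3% of 900 bases with a run of 39, and whether reads of Tpsab1 were assigned to Tpsb2 was not tested.

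In order of mean level, the control group ran from Mcpt4 through Cma1, Cpa3 and Tpsb2, then Mrgprb3, Mrgprb1, Mrgprb2 and Hdc, to Ms4a2 and Fcer1a. Here FPKM allows levels of different genes to be compared per length. In control samples the ranges of neighbours overlapped down to Tpsb2, and again from Mrgprb3 to Hdc. The order was different in NS-treated samples, where Tpsb2 was in second place, Hdc and Fcer1a followed the proteases at 4.96 ± 1.77 and 4.48 ± 1.17 FPKM (SD, n = 4), and Mrgprb3 was last. Fcer1a moved from the 8.0 percentile of all tested genes in control to the 41.5 percentile in NS-treated and the 30.2 percentile in BZLF-treated samples, and Mrgprb3 from 50.1 to 0.1 and 5.6.

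Counted together, 6 of the 10 genes fell and 2 rose in NS-treated against control samples at an adjusted p below 0.05 from limma. Over all genes tested, 27.1% passed as lower and 29% as higher. When a log2 fold change beyond 1 in either direction was also required, which defines a DEG, Cma1, Cpa3, Mrgprb2 and Mrgprb3 were lower and Hdc and Fcer1a higher, against 11% and 11.4% of all genes. The groups did not overlap for 8 of the 10, against 49.4% of all genes, and by a two-sided exact permutation test of each gene p was 0.0286 for these 8, 0.0571 for Ms4a2 and 0.314 for Tpsb2. The median log2 fold change of the 10 was -0.82, and of all genes 0.053. Without control replicate 2, 8 fell and 2 rose and the median was -0.97. Of all genes, 28.9% then passed as lower and 39.5% as higher.

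After BZLF none of the 10 passed with limma when the lesions of the 2 treated groups were set against each other, where 5.17% of all genes passed as lower and 1.28% as higher. With the fold limit the shares of all genes were 2.2% and 0.321%. The unadjusted p from limma was 0.00437 for Hdc, 0.00628 for Fcer1a and 0.0227 for Mrgprb3, and above 0.05 for the others. The share of all genes with an unadjusted p below 0.05 was not computed. By a two-sided exact permutation test of each gene, p was 0.0286 for Fcer1a, 0.0571 for Hdc and 0.0571 for Mrgprb3, and between 0.286 and 1 for the others. Fcer1a was the 1 gene without overlap, against 15.2% of all genes. The median log2 fold change of the 10 was -0.053, and of all genes -0.023. For the proteases the 95% intervals were -0.55 to 0.40 for Mcpt4, -0.50 to 0.53 for Cma1, -0.44 to 0.37 for Cpa3 and -0.73 to 0.13 for Tpsb2.

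**Figure D4:**
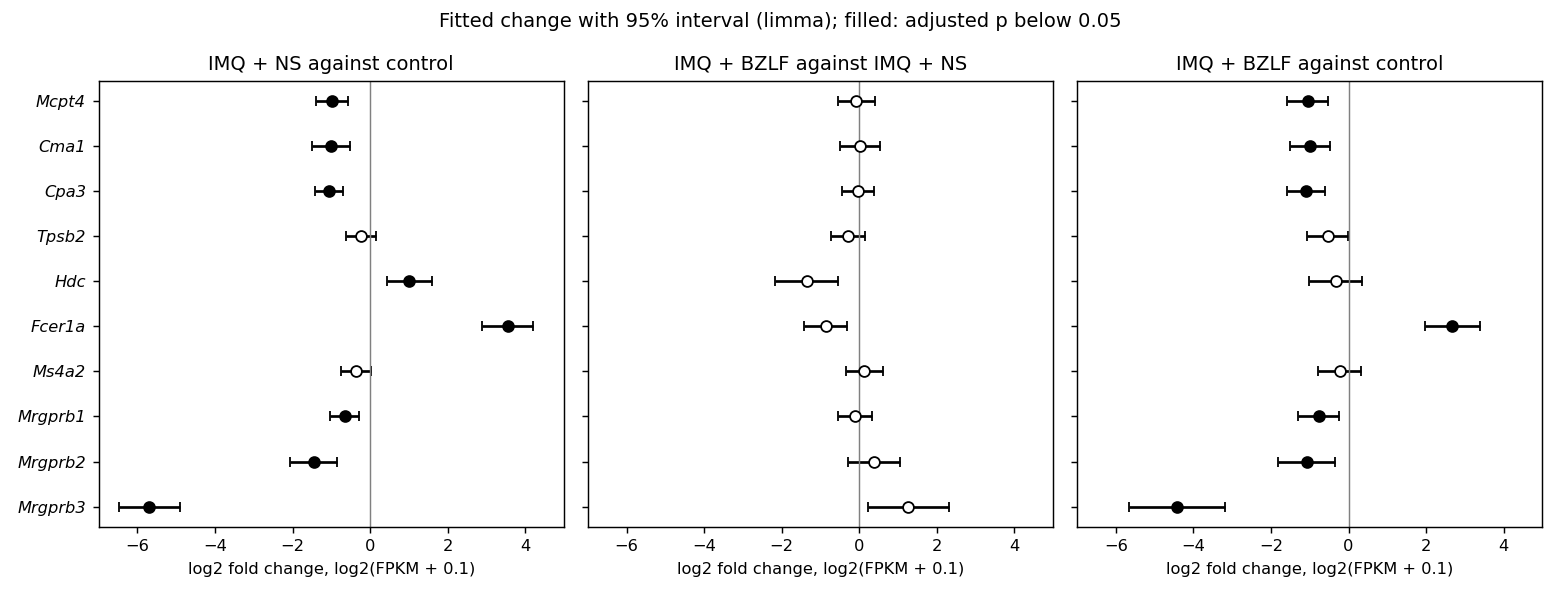
Fitted log2 fold changes (horizontal axes, log2(FPKM + 0.1)) of the 10 mast cell genes in the 3 comparisons, with 95% intervals from limma. Filled points have an adjusted p below 0.05 over all genes. There are 8 filled points in IMQ + NS against control, 0 in IMQ + BZLF against IMQ + NS and 7 in IMQ + BZLF against control.

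Set against control skin, BZLF-treated samples had 6 of the 10 genes lower and 1 higher at an adjusted p below 0.05 from limma, and the background was 29.2% and 23.8% of all genes. With the fold limit 4 were lower, Mcpt4, Cpa3, Mrgprb2 and Mrgprb3, and 1 was higher, against 10.1% and 9.65% of all genes. The groups did not overlap for 6 of the 10, against 47.5% of all genes. The 6 that passed as lower were Mcpt4 (-1.06, adjusted p = 0.00509), Cma1 (-1.0, adjusted p = 0.00612), Cpa3 (-1.10, adjusted p = 0.00280), Mrgprb1, Mrgprb2 and Mrgprb3, and the higher gene was Fcer1a. Tpsb2 did not pass at -0.54 (95% interval -1.07 to -0.01, adjusted p = 0.0773), and without control replicate 2 it did, at -0.69 (adjusted p = 0.0212). Without control replicate 2, 7 genes were lower and 1 was higher, beside 31% and 35.1% of all genes. This comparison shares its control samples with that of NS-treated and its BZLF-treated samples with that against NS-treated, so the 3 are not independent.

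Further genes used by mast cells moved in both directions. Of the 25 tested, 10 fell and 6 rose in NS-treated against control samples, where 27.1% of all genes passed as lower and 29% as higher, and the median log2 fold change was -0.35. The lower DEGs were Ltc4s, leukotriene C4 synthase (-1.65, adjusted p = 5.3e-04 from limma), Tpsg1, a membrane-bound tryptase (-1.60, adjusted p = 6.6e-04), Slc6a4, the serotonin transporter (-1.29, adjusted p = 0.00124), and Adora3, an adenosine receptor (-1.24, adjusted p = 0.0350). The higher DEG was Rab27b, a GTPase of granule release (1.56, adjusted p = 7.3e-05). Kit, the receptor for stem cell factor, rose from 3.44 ± 1.25 to 6.40 ± 0.790 FPKM (SD, n = 4; 0.93, adjusted p = 0.00690).

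Kit is also carried by melanocytes. Of 5 melanocyte genes 4 passed as higher in NS-treated against control samples, beside 29% of all genes. The median log2 fold change of the 5 was 2.90. Their summed FPKM was 42.7, 253, 53.7 and 63.6 in control samples, 199 to 385 in NS-treated and 268 to 562 in BZLF-treated samples, so that control replicate 2 was near the treated groups. The part of melanocytes in the Kit values was not tested. In BZLF-treated against NS-treated samples Kit had a log2 fold change of 0.0061 (95% interval -0.28 to 0.30, adjusted p = 0.984 from limma). Of the 25 genes 2 fell there, Fcer1g and the granule proteoglycan gene Srgn (-0.87, adjusted p = 0.0311), and 0 rose, beside 5.17% and 1.28% of all genes. Against control the BZLF-treated samples had 12 of the 25 lower and 5 higher, beside 29.2% and 23.8% of all genes, and the lower DEGs were Ltc4s, Tpsg1, Slc6a4, Adora3, Fcer1g and Gata2, a transcription factor of mast cells (-1.09, adjusted p = 0.00560).

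Downstream of the IgE receptor, 20 signaling genes were tested. In NS-treated against control samples 7 rose and 2 fell, beside 29% and 27.1% of all genes, and the median log2 fold change was 0.15. The named genes were the phospholipase gene Plcg1 (0.42, adjusted p = 0.00148 from limma), the GTPase gene Rac2 (0.70, adjusted p = 0.0137), the kinase gene Fyn (0.26, adjusted p = 0.0341) and the PI3K subunit gene Pik3r1 (-1.24, adjusted p = 1.1e-04). After BZLF 9 of the 20, Fcer1g among them, fell and 1 rose against NS-treated samples, beside 5.17% and 1.28% of all genes, with a median of -0.64. Rac2 fell by 1.55 (adjusted p = 0.00649), the kinase gene Lyn by 1.12 (adjusted p = 0.0122), the phospholipase gene Plcg2 by 1.0 (adjusted p = 0.00177) and Inpp5d, an inhibitory phosphatase, by 0.98 (adjusted p = 0.0119). Most of these genes are also used by neutrophils and macrophages, and the neutrophil sums given above moved in the same way. The part of those cells was not tested.

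Of 11 tested genes of signals that feed or attract mast cells 5 fell and 1 rose in NS-treated against control samples, beside 27.1% and 29% of all genes, with a median of -0.63. Ccl2, a chemokine, was at -2.15 (adjusted p = 2.5e-04 from limma), Tslp, an epithelial cytokine, at -1.49 (adjusted p = 0.00665) and Ccl5 at -1.21 (adjusted p = 0.0171), while Tgfb1 rose by 0.32 (adjusted p = 0.0382). Kitl, the ligand of Kit, did not pass, at 0.30 (95% interval -0.16 to 0.76, adjusted p = 0.227). After BZLF 2 fell against NS-treated samples, Il33, an alarmin that acts on mast cells, from 13.4 ± 5.42 to 3.14 ± 1.69 FPKM (SD, n = 4; -2.08, adjusted p = 0.0145), and Tgfb1 (-0.47, adjusted p = 0.0378). Il33 averaged 9.52 ± 2.67 FPKM in control samples and did not pass in NS-treated against control (0.43, adjusted p = 0.272 from limma). Its BZLF-treated samples, at 1.91 to 5.64 FPKM, were below all control samples, at 7.40 to 13.2. Among 3 tested genes of histamine reception and breakdown, Hnmt, which inactivates histamine, fell by 1.10 in NS-treated against control (adjusted p = 0.00901), as did the receptor gene Hrh1 by 0.64 (adjusted p = 0.0249).

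Of the other Mrgpr genes 5 were tested. Mrgprf (-1.15, adjusted p = 5.0e-05 from limma) and Mrgprg (-2.04, adjusted p = 0.00459) fell in NS-treated against control samples, and Mrgpra4 (-0.72, adjusted p = 0.161), Mrgpre (-0.24, adjusted p = 0.412) and Mrgprb8 (-0.017, adjusted p = 0.980) did not pass, where 27.1% of all genes passed as lower. In BZLF-treated against NS-treated samples 0 of the 5 passed with limma. Among 7 neuropeptide genes Npy rose (3.82, adjusted p = 0.00600) and Adm fell (-0.78, adjusted p = 0.0232) in NS-treated against control. There 29% of all genes passed as higher and 27.1% as lower.

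Genes of other dermal cells were also among those that fell. In NS-treated against control samples 27.1% of all genes passed as lower and 29% as higher. Of 7 genes of dermal fibroblasts and matrix 5 fell in NS-treated against control samples, with a median log2 fold change of -1.55, while Pdgfra and Thy1 did not pass, and Col1a1 was at -2.10 (adjusted p = 3.1e-05 from limma). Their summed FPKM was 13251 to 18742 in control, 3775 to 4975 in NS-treated and 4369 to 8218 in BZLF-treated samples. Of 8 macrophage genes 7 fell and 1, Adgre1, rose, with a median of -0.52, and of 5 blood vessel genes 4 fell, with a median of -0.64. Of 5 skeletal muscle genes 5 fell and of 5 adipocyte genes 4, while all 7 hair shaft and inner root sheath genes rose. Basal and suprabasal keratinocyte genes had 5 of 7 higher and 1 lower, with a median of 1.32. The summed FPKM of the 10 mast cell genes was 203 to 349 in control, 142 to 200 in NS-treated and 98.7 to 190 in BZLF-treated samples. The part of the changing share of dermis and epidermis in the mast cell values was not tested.

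**Figure D5:**
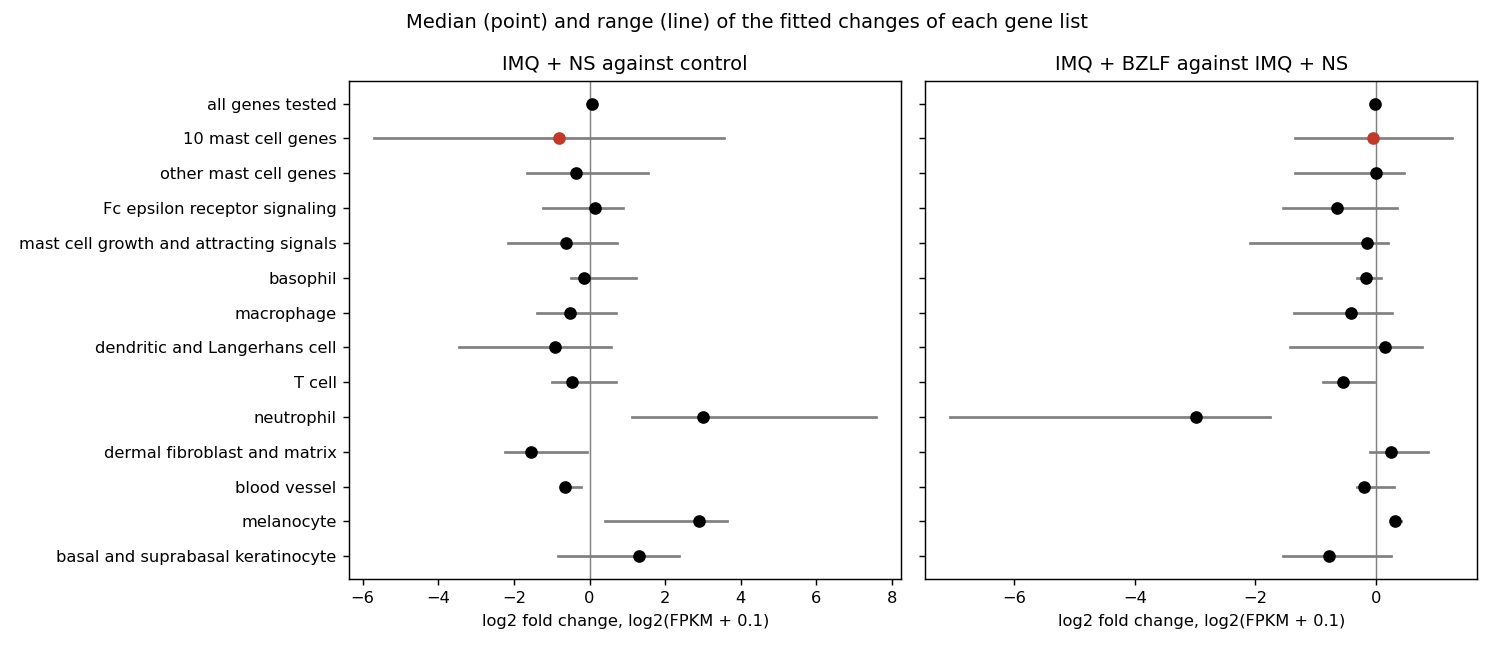
Median (point) and range (grey line) of the fitted log2 fold changes, log2(FPKM + 0.1), of the tested genes of each list, in IMQ + NS against control (left) and IMQ + BZLF against IMQ + NS (right). The 10 mast cell genes are in red, with medians of -0.82 and -0.053, and of the lists drawn dermal genes have the lowest and neutrophil genes the highest median on the left.

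The genes whose profile over the 12 samples was nearest to the mean of the 10 were Uqcc3, Snapc5, Rftn1, Gimap1, Slc48a1, Snx8, Apoc1, Tspan17, Dguok and Nol3. Likeness was the root mean square distance between log2(FPKM + 0.1) values centred on their mean, among genes averaging 1 FPKM or more, and ran from 0.0955 for Uqcc3 to 0.128 for Nol3. These are genes whose change is close to the average of members that went in different directions. Mcpt4 lay at 0.106 from Cpa3, closer than any other gene averaging 1 FPKM or more, and at 0.111 from Cma1. The next nearest to Cpa3 were Blvrb at 0.131, Tshz2 at 0.135, Selenow at 0.135 and Prxl2b at 0.137. None of these is in the lists of mast cell genes, and Cma1 lay farther from Cpa3, at 0.138. Among the 10 members, Tpsb2 was nearest to Mrgprb1, at 0.193, and lay 0.346 from Cpa3. Hdc was 0.934, Fcer1a 2.03 and Mrgprb3 2.09 from Cpa3. The targets Cpa3, Hdc, Fcer1a and Mrgprb3 were chosen after their values had been seen. The nearest gene was Degs2 to Fcer1a, at 0.289, Ifitm1 to Hdc, at 0.265, and C7 to Mrgprb3, at 0.672.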

How the data were processed

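Total RNA of 12 skin samples was sequenced. The methods of the study describe mirVana extraction, TruSeq Stranded libraries with ribosomal RNA removal, alignment with Bowtie2 to transcripts and quantification with eXpress. The labels name TRIzol and a VAHTS kit instead, and the submitters' processing notes list fastp, HISAT2, HTSeq, R 3.2.0 and mm10, so the processing of the deposited values cannot be settled. The authors deposited FPKM, normalized for transcript length and depth, on a linear scale, with 1 value per gene and sample. Counts and reads were not used here, and the precision of a mean rests on its 4 samples.

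Genes averaging 0.1 FPKM or more were tested on log2(FPKM + 0.1), which understates changes of low genes, with limma 3.58.1 in R 4.3.3. Each pair of groups was fitted separately, with moderated variances following a trend and Benjamini-Hochberg adjustment over the 15288 genes. DEGs passed at 0.05 after adjustment with a log2 change above 1 in either direction. Single genes were also compared by an exact permutation test. Python 3.11.15, pandas 2.3.3, Biopython 1.88 and matplotlib 3.10.9 were used. The method was checked on simulated data.

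The members and lists were chosen with earlier results of these data known. Named genes were the 10 members, DEGs of the further mast cell list and Kit, up to 4 passing genes of each other list with the highest mean FPKM, any defining marker at 0, and the 10 genes nearest to the mean profile. Srgn, Fcer1g, Mcpt8, Kitl, S100a8, S100a9, Adgre1, Pdgfra, Thy1, Mrgpra4, Mrgpre, Mrgprb8, Mrgprx2, C7, Degs2, Ifitm1, Blvrb, Tshz2, Selenow, Prxl2b and genes named as below the filter were added after their values were seen. Sequences are from RefSeq (GRCm38.p6) and coordinates are of GRCm38, which is mm10. Alternatives covered the constant, the filter, the scaling, the samples in the fit, the moderation, the call rule, the replicate block and leaving out each sample.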

Additional observations from a re-analysis of the deposited data

Results flagged for a closer look

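Mrgprb3 in the IMQ + NS group had 1 sample flagged as apart from the others, replicate 2 at 0.0278 FPKM, while the other 3 were listed at 0. With the others tied at 0 any value above 0 is flagged, so the flag cannot show that this sample was unusual. Of the 48 groups of 4 samples examined in this way this was the 1 that was flagged. Chance gives about 1 in 20 groups where values are not tied.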

How the results depend on the processing

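The 10 genes gave 570 fitted changes under alternatives, of which 538 kept direction and side of the threshold, 13 newly passed, 7 no longer passed and 12 changed sign. All 12 sign changes were in IMQ + BZLF against IMQ + NS, where Cpa3 was 0.0231 with median ratio scaling and 0.012 with quantile normalization. Leaving out each sample gave -0.15 to 0.18 for Cma1, -0.16 to 0.13 for Cpa3, -0.20 to 0.13 for Mcpt4, -0.26 to 0.0294 for Mrgprb1 and -0.075 to 0.26 for Ms4a2. The DEGs among the 10 in IMQ + NS against control numbered 3 with 1 added before the logarithm in place of 6, and 4 to 7 when each sample was left out. In IMQ + BZLF against IMQ + NS they numbered 1 with all 12 samples in one fit and 1 with the replicate block. By an unadjusted p, for which the share of all genes was not computed, they numbered 2 (Hdc and Mrgprb3). When each sample was left out they numbered 0 to 1. In IMQ + BZLF against control they numbered 2 to 6 when each sample was left out, with 2 without control replicate 1 or IMQ + BZLF replicate 1. The cause was not tested.

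The study states no pairing of replicate numbers. Correlations of deviations for the same number ranged from -0.152 to 0.260. Replicates 3 and 4 correlated best with their own number in every comparison, replicate 1 in IMQ + BZLF against IMQ + NS only, and replicate 2 in none. Whether the numbers pair samples cannot be settled from these values. With the number as a block Hdc (adjusted p = 0.00419) and Fcer1a (adjusted p = 0.0488) passed as lower after BZLF against NS, and no other call on the 10 genes changed. Over all alternatives the adjusted p of that change was 0.00419 to 0.159 for Hdc and 0.0488 to 0.173 for Fcer1a. The range was 0.0230 to 0.543 for Tpsb2 and 0.0208 to 0.243 for Ms4a2 in IMQ + NS against control, and 0.0212 to 0.190 for Tpsb2, 0.00624 to 0.0566 for Mrgprb2, 0.00570 to 0.0647 for Mrgprb1 and 0.0471 to 0.765 for Hdc in IMQ + BZLF against control. With samples rescaled to equal sums Ms4a2 passed in IMQ + NS against control at -0.48 (adjusted p = 0.0384) and Tpsb2 in IMQ + BZLF against control at -0.65 (adjusted p = 0.0409), and the median of all genes in IMQ + NS against control moved from 0.053 to -0.073. That scaling raised the share of passing genes that were lower from 48.3% to 61.3% in IMQ + NS against control and from 55.1% to 65.1% in IMQ + BZLF against control. In IMQ + BZLF against IMQ + NS that share went from 80.2% to 66.2% with median ratio scaling and 67.9% with quantile normalization. Hdc in IMQ + BZLF against control passed without IMQ + BZLF replicate 4, at -0.62 (adjusted p = 0.0471). No limit was set on a value of 0, since read counts were not used here.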
